A study of Mus musculus with 36 samples.

Results

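The interferon-stimulated genes described here are 37 genes that liver cells and immune cells transcribe more when an interferon binds its receptor. The list was drawn from known interferon targets and selected on the difference in log2(FPKM + 1) between intermittent hypoxia (IH) and control at ZT4 and ZT8, in which Isg15, Irgm1 and Lgals3bp were among the lower genes. The values at ZT4 and ZT8 are therefore given for these genes as a description, with no test. Each of the 37 symbols was listed on 1 row of both deposited tables, among 24346 symbols in all, and all 37 averaged 0.1 FPKM or more over the libraries, which 13215 genes did in all.

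The livers came from male wild-type C57BL/6JRj mice, 16 weeks old. The IH mice went through 60 cycles of hypoxia and reoxygenation per hour, with 5% oxygen at the lowest and 21% at the highest point, from ZT0 to ZT8 each day for 4 weeks, where ZT0 is lights on. Control mice were given air in place of the hypoxic phases. For each condition, 3 mice were sampled every 4 h over 1 day (6 times), which gave 36 polyadenylated RNA libraries in 2 tables with the same column names, each assigned to a condition by the table's name. A whole liver sample holds hepatocytes, Kupffer cells, endothelial cells and blood cells together. In such bulk samples, fewer cells of a type and less RNA per cell cannot be told apart.

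Interferons are secreted by cells that sense viral or other foreign nucleic acid. Type I interferons act through a receptor made of Ifnar1 and Ifnar2, whose kinases Jak1 and Tyk2 activate a complex that holds Stat2 and Irf9 and binds the interferon-stimulated response element (ISRE). Interferon gamma acts through Ifngr1 and Ifngr2 and a different element (GAS), and in the liver both hepatocytes and Kupffer cells respond.

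The start-site sequences of the members were searched for the element through which these genes are known to respond. Of the 37 members, 26 had an entry in the RefSeq promoter table (GRCm38.p6). The ISRE core was searched as GAAA, any 2 bases and GAAA again, on both strands, in the 250 bases before the start site. It was found at 13 of the 26 members (50%), against 3.46% of the 27025 symbols in the table. The GAS element, searched as TTCNNNGAA on both strands, was found at 3 of the 26 (11.5%), Igtp, Irgm2 and Ifit2, against 8.13% of all symbols. A match is a match of letters only, and overlapping matches were counted as 1 gene. The 120 bases before the start site are given here for 7 members with a match, on the strand of the gene, 5′ to 3′, with the ISRE matches in capitals. Isg15 is shown because its difference in log2(FPKM + 1) between the conditions at ZT4 and ZT8 was the widest. Ddx60 and Ifit1 are shown because they hold 2 matches apart from each other. Irgm1, Igtp, Irgm2 and Gbp2 are shown because these GTPase genes were several times higher in a single control mouse than in its group mates.
Isg15, chr4:156200819-156200938, minus strand: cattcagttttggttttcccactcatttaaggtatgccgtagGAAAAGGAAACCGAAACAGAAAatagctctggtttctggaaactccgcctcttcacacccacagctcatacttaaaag
Ddx60, chr8:61927967-61928086, plus strand: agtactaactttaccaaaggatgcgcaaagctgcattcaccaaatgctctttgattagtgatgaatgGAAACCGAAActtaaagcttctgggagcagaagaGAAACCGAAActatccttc
Ifit1, chr19:34640769-34640888, plus strand: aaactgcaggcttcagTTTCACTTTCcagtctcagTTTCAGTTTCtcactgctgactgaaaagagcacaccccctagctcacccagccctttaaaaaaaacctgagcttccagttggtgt
Irgm1, chr11:48871421-48871540, minus strand: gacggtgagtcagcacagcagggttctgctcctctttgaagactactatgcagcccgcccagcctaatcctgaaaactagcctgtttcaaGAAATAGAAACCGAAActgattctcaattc
Igtp, chr11:58199436-58199555, plus strand: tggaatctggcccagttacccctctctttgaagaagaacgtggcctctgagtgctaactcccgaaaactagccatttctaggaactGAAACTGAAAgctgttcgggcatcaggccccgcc
Irgm2, chr11:58214857-58214976, plus strand: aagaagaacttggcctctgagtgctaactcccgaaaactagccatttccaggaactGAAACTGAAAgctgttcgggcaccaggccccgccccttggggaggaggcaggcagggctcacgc
Gbp2, chr3:142620543-142620662, plus strand: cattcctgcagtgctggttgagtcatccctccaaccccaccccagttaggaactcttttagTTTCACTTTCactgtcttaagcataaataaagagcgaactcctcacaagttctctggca
Isg15 carried 3 overlapping ISRE matches in one run, from base -78 to -57, and in Ifit1 and Gbp2 the matches lay on the opposite strand and read as TTTC repeats. Igtp and Irgm2 held a near-identical stretch with 1 ISRE and, a few bases upstream of it, 1 GAS match. The start of Irgm2 used here is that of RefSeq, inside its GENCODE gene body. Their annotated gene bodies (chr11:58199556-58207591 and chr11:58199618-58222782, GENCODE M21, GRCm38) overlap on the plus strand, so reads of the overlap cannot be assigned to one of them and their FPKM are uncertain to that degree. Reads may also be shared between close copies such as Ifit3 and Ifit3b or Gbp6 and Gbp10, which was not measured.

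Values are FPKM as the authors estimated them with Cufflinks, scaled to transcript length and to the fragments of each library. The files hold no counts, so the depth behind a value is not known and no counting interval can be given. The FPKM of the analysed symbols summed to between 540095 and 579428 per library, and to 758113 in control ZT12 replicate 2. That library held the lowest value of all 36 for 40.2% of all genes tested and for 11 members, and its summed Kupffer cell markers (9 genes) were 428.8 FPKM, against 43.8 to 139.5 FPKM in the others. Tests were made with limma on log2(FPKM + 1), with Benjamini-Hochberg adjustment over the 13215 genes.

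Expression of the members ran from Oas3, with a mean of 0.109 FPKM, to Iigp1, with 79.8 FPKM. Among the sensors of nucleic acid, Zbp1, which binds left-handed nucleic acid, had 4.98 FPKM, the RNA helicases Ifih1, Ddx58 and Dhx58 had between 4.06 and 4.13 FPKM, and Ddx60 had 0.374 FPKM. The transcription factors were all expressed above 10 FPKM, Irf7 at 18.1, Stat2 at 13.7 and Irf9 at 11.3. In the ISG15 system, Isg15, a ubiquitin-like modifier, had 8.78 FPKM, its protease Usp18 had 3.16 and its ligase Herc6 had 1.62. Of the IFIT and OAS proteins, which bind foreign RNA or make the messenger that activates RNase L, Oasl1 was highest with 6.92 FPKM, followed by Ifit3 (4.11) and Ifit1 (2.15). Mx2, an antiviral GTPase that the annotation lists as a polymorphic pseudogene, had 1.72 FPKM, Mx1 had 0.369, and the neighbouring genes Rsad2 (viperin) and Cmpk2, its partner kinase, had 1.41 and 1.44. The immunity-related GTPases, which attack the vacuoles of intracellular parasites, held the most abundant member, with Iigp1 at 79.8, Irgm1 at 21.0, Igtp at 15.3 and Irgm2 at 12.0 FPKM. Lgals3bp, a secreted glycoprotein, had 29.9 FPKM and led the remaining genes, ahead of Ifi35 at 15.5 and the ADP-ribosyltransferase-like Parp9 at 11.6 FPKM.

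One control mouse of ZT0 stood apart from all other mice in these genes. Replicate 1 of that group had the highest value of the 36 libraries for 31 of the 37 members, and for 6.89% of all genes tested. As a summary per liver, the log2(FPKM + 1) of each member was set relative to its own mean over the 36 libraries and averaged over the members. This mean was 1.15 in that mouse and 0.02 and 0.22 in the other control mice of ZT0. The 3 IH mice of ZT0 had 0.09, 0.17 and 0.41, and the highest value in any other liver was 0.44, in a control mouse of ZT4.

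**Figure D1:**
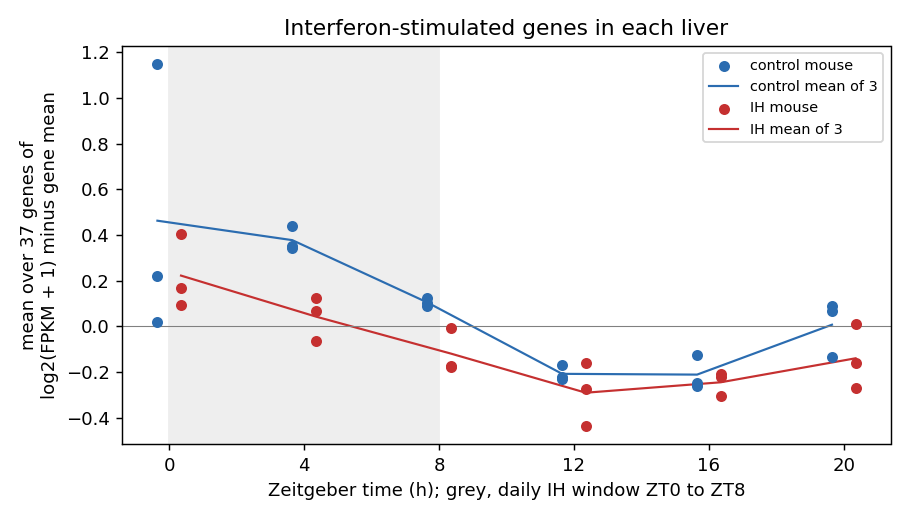
Mean over the 37 genes of log2(FPKM + 1) minus the gene's mean over 36 libraries (vertical axis) against Zeitgeber time in hours, with 1 point per liver and lines through the means of 3. Control replicate 1 of ZT0 lies at 1.15, above every other liver, and both lines are lowest at ZT12 and ZT16.

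The immunity-related and guanylate-binding GTPases differed most in this mouse. Igtp, which guards host membranes against vacuole-directed attack, was at 118.6 FPKM in replicate 1 and at 11.2 and 14.3 FPKM in replicates 2 and 3. Gbp6 was at 26.6 FPKM in replicate 1, against 2.59 and 3.90. Irgm1 was at 75.2 FPKM, against 26.0 and 27.0. No other liver of the series came near these levels, since the highest other values were 17.5 FPKM for Igtp, 5.44 for Gbp6 and 28.3 for Irgm1.

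Relative to the mean of its group mates, the 7 GTPase genes were between 2.53 and 9.32 times as high in this mouse, with a median of 5.81. The sensors had a median ratio of 1.57, the transcription factors 1.68, the ISG15 system 2.61, the IFIT and OAS genes 2.47 and the Mx and viperin genes 3.19. Over the 37 members the median ratio was 2.53, and 23 members were more than 2 times as high, against 2.47% of all genes tested, whose median ratio was 1.02. The lowest member was Oas3 at 0.99, and Ifi35, Oas2 and Ifih1 were next, at about 1.2. The 6 members whose highest value lay in another liver were Ifih1, Ddx60, Oas2, Oas3, Mx1 and Ifi35.

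**Figure D2:**
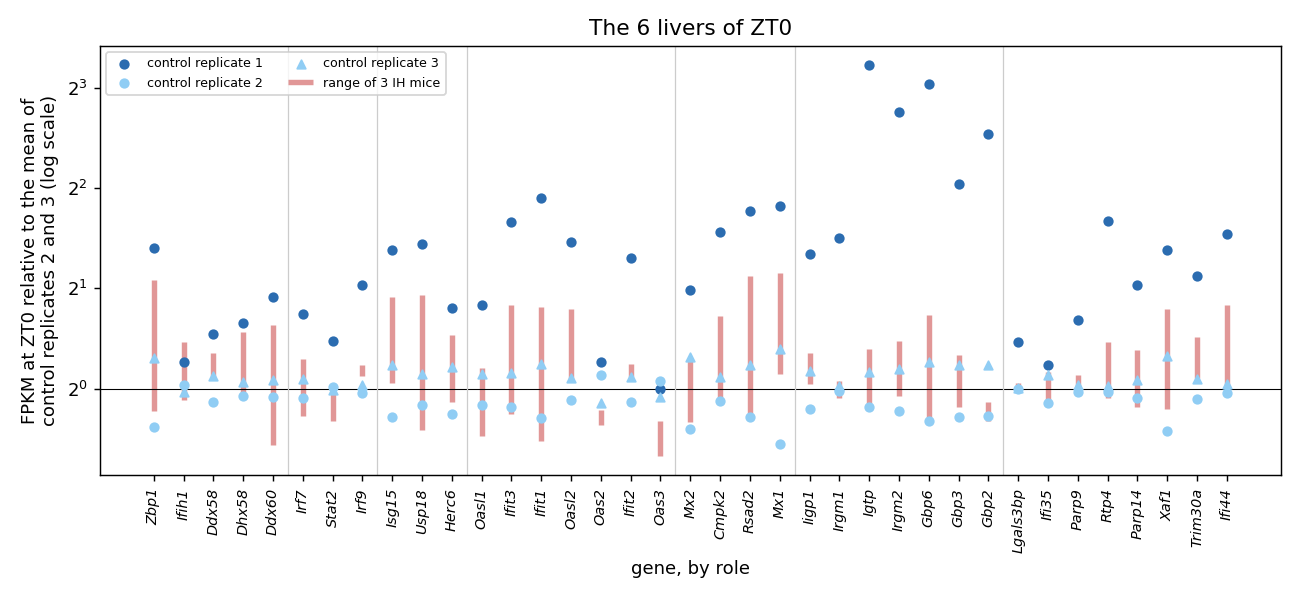
FPKM of each of the 37 genes in the 6 livers of ZT0, divided by the mean of control replicates 2 and 3 (log axis), with genes ordered by role and red bars spanning the 3 IH mice. Control replicate 1 lies above the IH range for 36 of 37 genes and farthest above it for Igtp, Gbp6, Irgm2 and Gbp2.

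Genes outside the list that are known interferon targets were high in the same mouse. The GTPase Tgtp1 was at 32.1 FPKM, against at most 3.61 in any other liver, and Irf1, a factor induced by interferon gamma, at 32.3 FPKM, against at most 17.5. Transcripts of the interferons were not seen there, since Ifnb1, Ifng and Ifnk were listed at 0 in that library. Its summed Kupffer cell markers were 84.0 FPKM, within the range of the other livers, and none of the 9 was at its highest there. Of 11 leukocyte markers 2 were at their highest there (Cd3g and Ncr1), and the list summed to 2.94 FPKM, against 1.25 to 7.13 FPKM in the other livers. Of 6 dendritic cell markers 2 were at their highest (Xcr1 and Itgax), and the list summed to 1.30 FPKM, against 0.614 to 1.32 FPKM. The acute-phase gene Saa1 was at 49.8 FPKM, below its group mates at 381.9 and 1235 FPKM. Saa2, Lcn2 and Orm2 were also below both group mates, and Hp, Crp and Fgg lay between them. These 7 acute-phase genes summed to 4161 FPKM in this mouse, against 4542 and 8830 FPKM in its group mates. The part of these cell types in the levels of this mouse was not tested. Some of the counts, means and medians below are also given without this mouse, and the others include it.

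The members were compared between times of day in the 24 livers of ZT0, ZT12, ZT16 and ZT20. The difference at ZT4 and ZT8 that the list was selected on did not use these livers. The list was made with earlier results of these data known. The level of 27 of the 37 members differed between the time points (limma F test, adjusted p under 0.05), where 28% of all genes tested did. Of these 27, 25 had their highest mean at ZT0, with or without control ZT0 replicate 1, and 26 their lowest at ZT12 or ZT16. Among all genes called in the test, 48.5% had the highest mean at ZT0 and 74.9% the lowest at ZT12 or ZT16.

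Lgals3bp had such a profile in both conditions. In control it was at 50.5, 36.5 and 36.9 FPKM at ZT0 and at 21.7, 22.5 and 22.3 FPKM at ZT12. In IH it was at 37.5, 35.9 and 38.2 FPKM at ZT0 and at 21.7, 25.4 and 19.8 FPKM at ZT12. All 6 livers of ZT0 were above all 6 of ZT12, and the adjusted p of the F test over the 4 time points was 2.14e-06.

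The RNA sensors followed the same course. Dhx58, a regulator of the other helicases of its family, had 5.87 ± 1.43 FPKM at ZT0 and 2.22 ± 0.431 FPKM at ZT12 (SD over the 6 livers of both conditions, adjusted p = 2.13e-06). Ddx58, which encodes RIG-I, had 5.31 ± 0.885 and 2.62 ± 0.356 FPKM (adjusted p = 4.85e-06). Ifih1, which encodes MDA5, had 4.66 ± 0.731 and 2.98 ± 0.215 FPKM (adjusted p = 7.49e-04). Of the 5 sensors Zbp1 was not called, with 8.20 ± 4.50 FPKM at ZT0 and 3.89 ± 2.21 at ZT16 (adjusted p = 0.073). It was called without control ZT0 replicate 2 (adjusted p = 0.024), control ZT12 replicate 2 (0.027) or control ZT16 replicate 3 (0.030), and its values in the 6 livers of ZT0 ranged from 4.42 to 15.3 FPKM.

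Among the genes that act on infected cells, Isg15 had 14.0 ± 6.56 FPKM at ZT0 and 4.85 ± 0.512 FPKM at ZT16 (adjusted p = 5.06e-04). Cmpk2, a mitochondrial nucleotide kinase, had 2.45 ± 1.42 FPKM at ZT0 and 0.611 ± 0.165 at ZT12 (adjusted p = 2.82e-04). Iigp1 had 98.9 ± 44.5 FPKM at ZT0 and 50.5 ± 4.66 FPKM at ZT16 (adjusted p = 0.0023). Oasl1 had 9.59 ± 3.06 FPKM at ZT0, 3.69 ± 0.631 FPKM at ZT12 and 7.44 ± 1.58 FPKM at ZT16 (adjusted p = 3.43e-05). The values at ZT0 without control ZT0 replicate 1 were 11.7 ± 3.90 FPKM for Isg15, 1.90 ± 0.559 for Cmpk2, 81.2 ± 11.3 for Iigp1 and 8.47 ± 1.56 for Oasl1. By role, 4 of 5 sensors, all 3 transcription factors, all 3 genes of the ISG15 system, 2 of 7 IFIT and OAS genes, 3 of 4 Mx and viperin genes, 4 of 7 GTPases and all 8 of the remaining genes were called.

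Irf7, the factor that amplifies the type I response, and Ifi35 were the 2 called members whose highest mean was not at ZT0. For Ifi35 this rested on control ZT12 replicate 2, since without it the mean was 16.2 FPKM at ZT12 and 17.4 FPKM at ZT0. Irf7 kept its highest mean at ZT12 without that liver, at 21.6 FPKM. In control, Irf7 was at 26.8, 28.3 and 23.0 FPKM at ZT12 and at 14.6, 16.0 and 16.4 FPKM at ZT20. In IH it was at 22.8, 16.2 and 19.1 FPKM at ZT12 and at 13.1, 13.6 and 11.9 FPKM at ZT20. The values of ZT12 lay above those of ZT20 in both conditions (adjusted p of the time test = 0.0055).

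**Figure D3:**
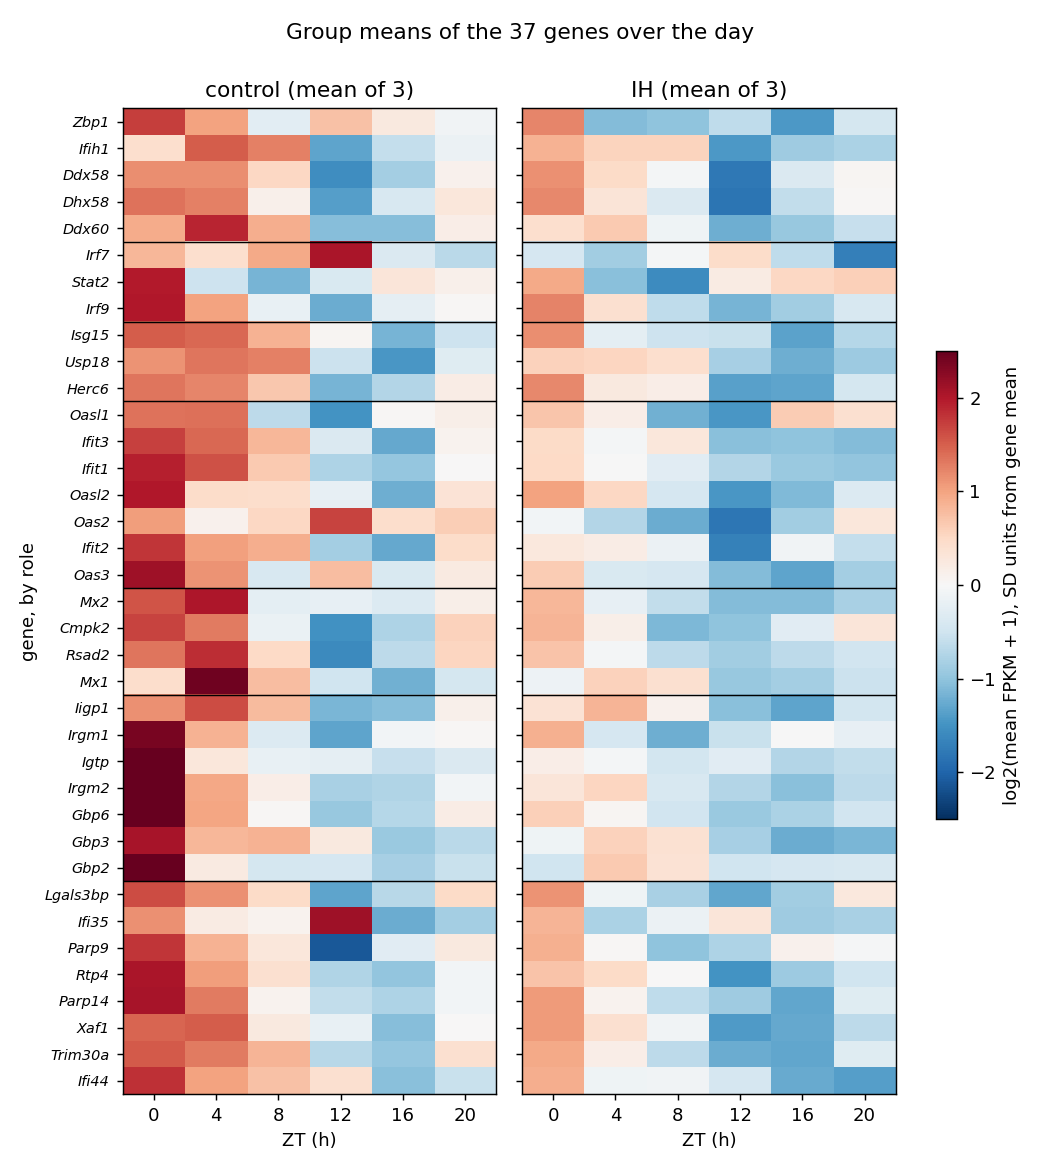
Group means of the 37 genes over the 6 time points in control (left) and IH (right), as log2(mean FPKM + 1) in SD units from the gene's mean over the 12 groups, with black lines between roles. Most rows are highest (red) at ZT0 or ZT4 and lowest (blue) at ZT12 or ZT16, and the dark cells of the GTPases at ZT0 in control hold the mouse with 118.6 FPKM of Igtp.

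Without control ZT0 replicate 1 the time test called 26 members, with Gbp3 gained (adjusted p = 0.040) and Ifit1 (0.096) and Mx2 (0.058) lost, and without control ZT12 replicate 2 it called 30, with 25.0% and 40.4% of all genes. In the 12 IH livers alone it called 18 members, with 12% of all genes, and in the 12 control livers alone 5 members, with 6.8% of all genes.

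With all 6 time points, a cosine of 24 h fitted to the mean over the members peaked 2.2 h after lights on in control and 1.5 h in IH. The replicate series taken one at a time peaked at 1.68, 3.20 and 2.30 h in control and at 0.81, 3.69 and 0.46 h in IH, so the ranges of the conditions overlapped. Without control ZT0 replicate 1 the control peak was at 2.94 h. This fit includes the livers of ZT4 and ZT8 and is a description.

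Whether IH mice differed from control outside ZT4 and ZT8 was tested over the same 24 livers, 12 of each condition, in a model that also held the time of sampling. None of the 37 members was called lower or higher in IH at an adjusted p under 0.05, as for all genes tested (0% in each direction). At an unadjusted p under 0.05, 5 members were lower (Zbp1, Irf7, Oas2, Oas3 and Mx2) and 0 higher, where 1.82% of all genes were lower and 4.67% higher. At an unadjusted p under 0.01, 1 member was lower, where 0.356% of all genes were. By sign alone 32 members were lower in IH, where 40% of all genes were, and the median difference on the log2(FPKM + 1) scale, IH minus control, was -0.12 for the members and 0.02 for all genes.

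That median rests in large part on the control mouse of ZT0. Without it the median was -0.05, with 28 members lower by sign, and without it and control ZT12 replicate 2 together it was -0.04, with 27 members lower.

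Irf7 had the smallest p of the members, with a difference of -0.27 ± 0.09 (SE, limma adjusted p = 0.53). Its 12 control values ran from 14.6 through a median of 17.2 to 28.4 FPKM, and its 12 IH values from 11.9 through 14.6 to 22.8 FPKM. The ranges overlapped over most of their length, and at ZT12 and ZT20 all 3 IH mice lay below all 3 control mice. Zbp1 had the widest difference, -0.41 ± 0.19 (limma adjusted p = 0.76), and its difference was -0.23 without the 2 livers named above.

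The other members with full values in this comparison were closer to 0. Isg15 had a difference of -0.15 ± 0.14, Lgals3bp of -0.06 ± 0.06, Irgm1 of -0.05 ± 0.15 and Oasl1 of 0.03 ± 0.11. Herc6 had -0.09 ± 0.07, Oas2 -0.19 ± 0.08, Mx2 -0.23 ± 0.11, Iigp1 -0.13 ± 0.13, Gbp3 -0.23 ± 0.12 and the chaperone Rtp4 -0.22 ± 0.14. Each adjusted p (limma) was 0.64 or higher. The sign of Isg15 turned to 0.01 without the 2 livers, that of Irgm1 to 0.08 without control ZT0 replicate 1, and that of Oasl1 to -0.01 without IH ZT16 replicate 1 and to values nearer 0 with 2 of the 3 scalings tried.

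Taken one at a time, ZT0, ZT12, ZT16 and ZT20 gave no called member either (limma, contrasts within all 36 livers). All genes called were 0% in both directions at ZT0 and ZT20, 0.499% lower and 0.272% higher at ZT12, and 0% lower and 0.00757% higher at ZT16. At an unadjusted p under 0.05, 3 members were lower and 0 higher at ZT0 (4.34% and 3.22% of all genes), and 2 lower and 1 higher at ZT12 (11.7% and 12.9%). At that threshold 0 members were lower or higher at ZT16 (0.832% and 2.47%) and at ZT20 (1.07% and 3.68%). The smallest of these p belonged to Oas2 at ZT12, with a difference of -0.41 (limma adjusted p = 0.10), and 5.4% of all genes were lower there at an unadjusted p under 0.01. Without control ZT12 replicate 1 Oas2 was called lower at ZT12 (-0.59, limma adjusted p = 0.028). Without control ZT12 replicate 3, Oas2, Irf7 and Ifi35 were called lower there and Parp9 higher. Both fits kept control ZT12 replicate 2, which held the lowest value of all 36 livers for 40.2% of all genes. The shares of all genes called in these fits were not counted, so nothing is read from these calls. By sign alone 35 members were lower at ZT0, 25 at ZT12, 21 at ZT16 and 33 at ZT20, where 55.4%, 42.1%, 40.5% and 36.7% of all genes were. At ZT0 the direction turned without control ZT0 replicate 1. There, 6 members were then lower and 31 higher, with 52.4% of all genes lower, and the median difference of the members was 0.13 in place of -0.17. None was called and at an unadjusted p under 0.05 0 were lower and 1 higher. With all livers, the median difference of the members was -0.17 at ZT0, -0.06 at ZT12, -0.04 at ZT16 and -0.13 at ZT20. All 3 IH mice lay below all 3 control mice in 2 members at ZT0, 6 at ZT12, 4 at ZT16 and 5 at ZT20, where 6.21%, 6.74%, 3.84% and 4.18% of all genes did. All 3 lay above in 0, 2, 2 and 0 members, where 4.59%, 6.34%, 10% and 11.8% of all genes did. Whether the difference varied between these 4 time points was tested as an interaction, which called 0 members and 0% of all genes. The smallest adjusted p among the members was 0.77, with 0 members and 6.19% of all genes at an unadjusted p under 0.05.

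At ZT4 and ZT8, during the daily hypoxia, 36 of the 37 members had lower levels in IH than in control, where 35.1% of all genes did. These livers served to choose the list, so nothing is read from this count. The median difference of the members was -0.24, against 0.04 for all genes, and the members ran from Isg15 at -0.80 to the guanylate-binding protein Gbp2 at 0.19, the one member above 0. All 3 IH mice were below all 3 control mice in 23 members at ZT4 and in 14 at ZT8, where 7.79% and 7.16% of all genes were, and above them in 0 members at either time, where 26.7% and 11% of all genes were. At both times this held for 11 members, Isg15, Irgm1, Lgals3bp, Irf7, Dhx58, Ddx60, Oasl1, Mx2, Cmpk2, Iigp1 and Trim30a, and for 1.54% of all genes.

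Isg15 (chr4:156199424-156200818) was at 12.7, 14.9 and 15.9 FPKM in control and at 8.87, 6.79 and 6.51 FPKM in IH at ZT4. At ZT8 it was at 12.9, 11.8 and 10.0 FPKM in control and at 6.86, 6.83 and 6.21 FPKM in IH. The highest IH value at either time, 8.87 FPKM, was below the lowest control value, 10.0 FPKM. At ZT16 the same gene was at 4.23, 5.42 and 5.46 FPKM in control and at 4.38, 4.80 and 4.81 FPKM in IH, and there the groups overlapped.

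Irgm1 (chr11:48861968-48871683) was at 28.3, 22.9 and 28.1 FPKM in control and at 17.8, 17.6 and 16.9 FPKM in IH at ZT4, and at 17.8, 18.0 and 17.7 against 13.1, 14.7 and 12.4 FPKM at ZT8. Lgals3bp (chr11:118392751-118402092) was at 37.5, 36.9 and 37.5 FPKM in control and at 30.6, 30.1 and 25.5 FPKM in IH at ZT4, and at 33.9, 31.2 and 32.2 against 23.8, 23.8 and 26.4 FPKM at ZT8. For both genes the groups were apart at both times. At ZT12 they overlapped, with Lgals3bp at 21.7 to 22.5 FPKM in control and at 19.8 to 25.4 FPKM in IH.

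**Figure D4:**
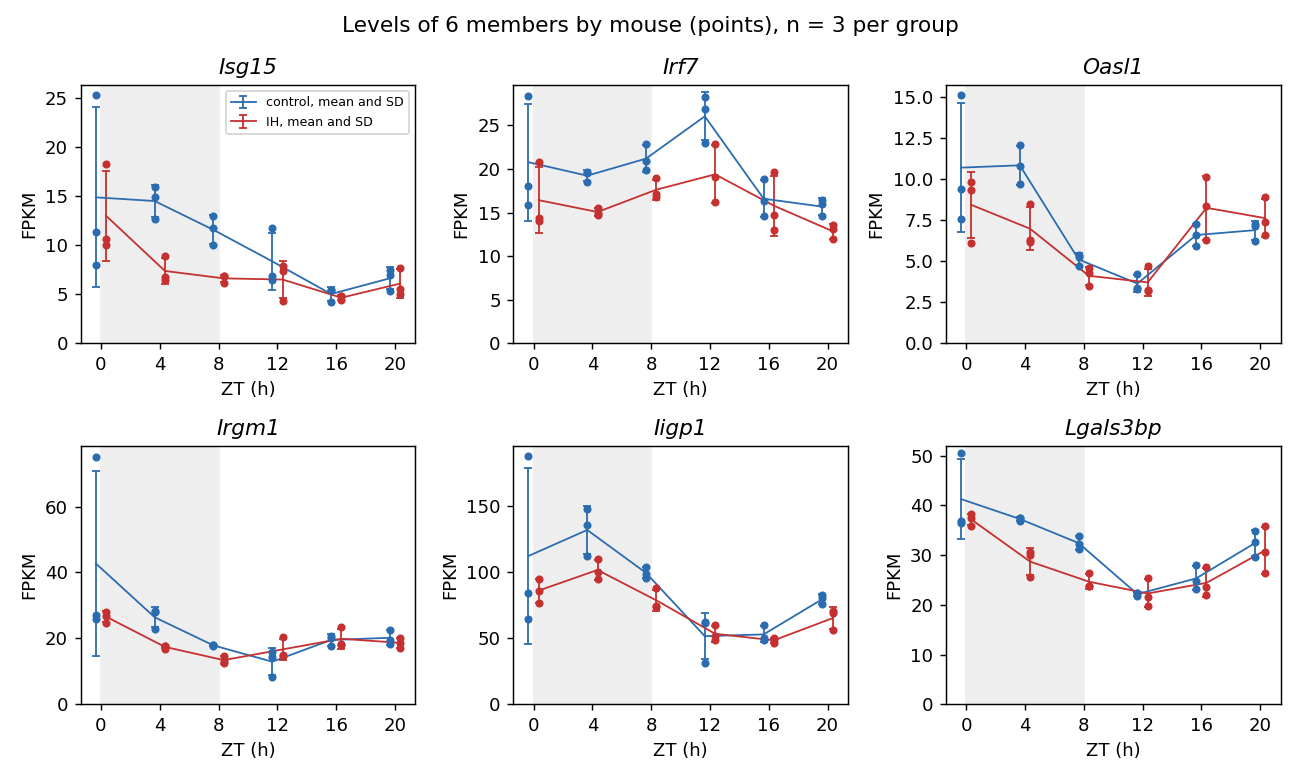
FPKM of Isg15, Irf7, Oasl1, Irgm1, Iigp1 and Lgals3bp in every liver (points) with the mean and SD of 3 mice per group, against Zeitgeber time, with the daily IH window in grey. Control lies above IH at ZT4 and ZT8 in all 6 genes, and the groups overlap at ZT16. All 6 are from the 11 members whose groups were apart at both ZT4 and ZT8. Irf7 was also apart at ZT12 and ZT20, and Iigp1 at ZT20.

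The other roles had the same sign there. Iigp1 was at 135.6, 111.9 and 147.2 FPKM in control and at 109.7, 99.8 and 94.5 FPKM in IH at ZT4. Irf7 was at 18.5, 19.5 and 19.7 FPKM in control and at 14.7, 14.9 and 15.5 FPKM in IH at that time, and Oasl1 at 10.8, 9.70 and 12.1 against 8.50, 6.28 and 6.20 FPKM. The groups of these 3 genes were apart at ZT8 as well, narrowly so for Oasl1. Zbp1 (-0.66), Rsad2 (-0.61), Ifit1 (-0.54) and Gbp6 (-0.51) were farther from 0 than Irgm1 (-0.48), although their groups overlapped at ZT8. The groups of Herc6 (-0.19), Oas2 (-0.17) and Gbp3 overlapped at both times, and those of Rtp4 (-0.20) at ZT8. The members nearest to 0 were Oas3 (-0.04), Oasl2 (-0.06), Ifit2 (-0.09) and Gbp3 (-0.10), and those of the interferon-responsive complex itself, Stat2 and Irf9, were at -0.14 and -0.17.

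**Figure D5:**
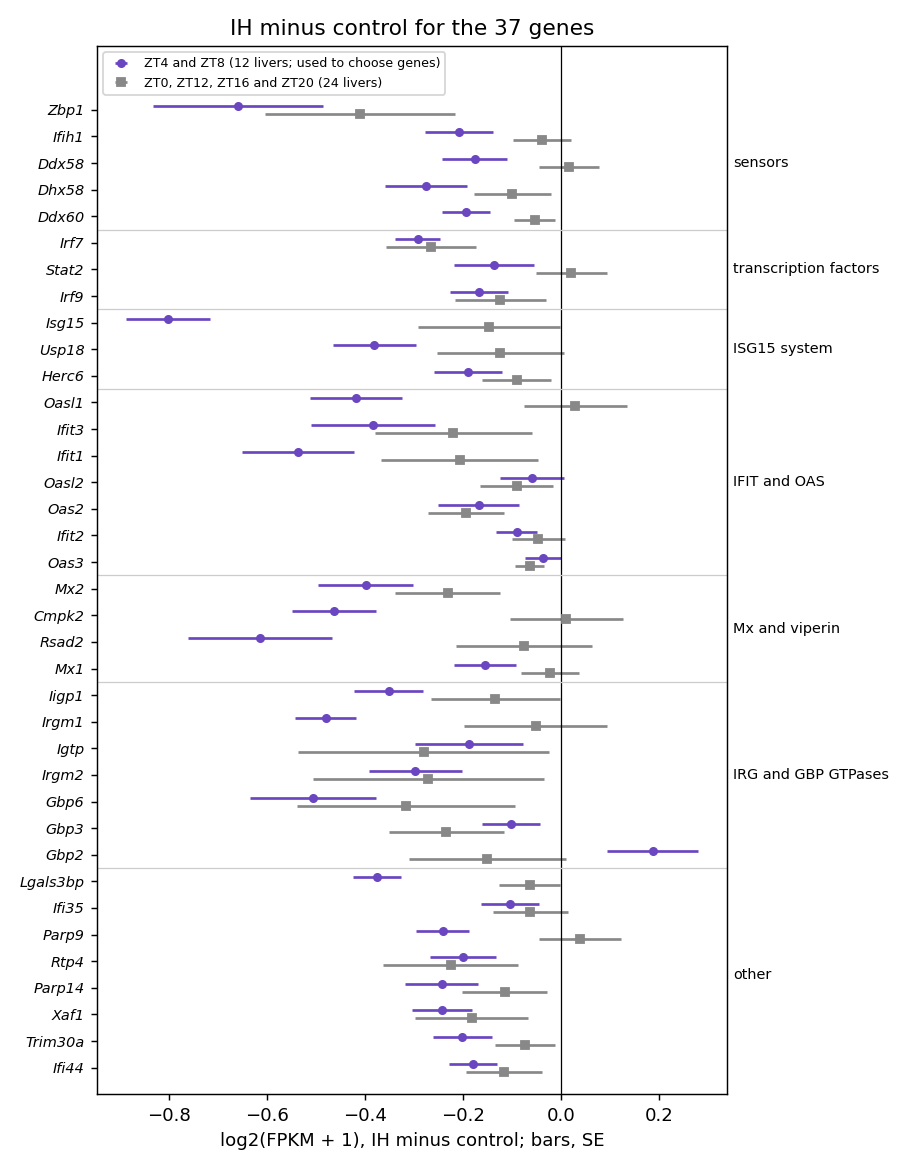
Difference in log2(FPKM + 1), IH minus control, with its SE for each of the 37 genes by role, at ZT4 and ZT8 (circles, 12 livers, used to choose the list) and at the other 4 time points (squares, 24 livers). At ZT4 and ZT8 the values run from -0.80 for Isg15 to 0.19 for Gbp2, and none of the squares passed the test.

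The genes upstream of the members were read in the same livers. Of 16 interferon genes listed, 13 were at 0 in all 36 libraries and none passed the filter. Ifng was above 0 in 14 libraries with at most 0.077 FPKM, Ifnk in 9 with at most 0.048 FPKM, and Ifnb1 in 1 with 0.095 FPKM. Interferon transcripts were thus at or near 0 in both conditions, and no difference in them could be detected.

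The receptors were expressed and none of the 5 tested was called at ZT4 and ZT8 (limma, with 1.93% of all genes called lower in IH and 6.05% higher). Ifnar2, the binding chain of the type I receptor, had 53.2 FPKM in control and 58.4 FPKM in IH there, with a difference of 0.14 ± 0.05 (limma adjusted p = 0.12). Ifngr1 and Ifngr2 had differences of -0.06 ± 0.07 and -0.08 ± 0.06.

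Among the signalling genes reported here, Stat3 fell and Irf2 rose in IH at ZT4 and ZT8. Stat3, which carries signals of interleukin 6 and related cytokines, differed by -0.65 ± 0.15 (limma adjusted p = 0.028), and Irf2, a repressor that competes with Irf1, by 0.32 ± 0.07 (limma adjusted p = 0.026). Jak1, Tyk2 and Irf3 were within 0.10 of 0. Among 9 genes of interferon induction tested, Traf3, an adaptor below the nucleic acid sensors, fell by 0.23 (limma adjusted p = 0.012), and Mavs, with 24.6 and 24.2 FPKM, differed by -0.01 ± 0.07. None of 8 inhibitors was called, Socs3 (-0.56) and Cish (-0.36) included.

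Among 57 further interferon-stimulated genes that are no members, 7 fell and 0 rose in IH at ZT4 and ZT8, where 1.93% of all genes were called lower and 6.05% higher. By sign 46 of the 57 were lower, where 35.1% of all genes were, with a median difference of -0.08. These are the livers that served to choose the members, and the list of the 57 was made with earlier results known. The counts are therefore a description and no independent support for the members. The 7 were Helz2, Ifi47, Gbp10, Apol9a, Ifit3b, Eif2ak2 and Ube2l6. Helz2, a helicase that acts as a coactivator of nuclear receptors, differed by -0.37 ± 0.07 (limma adjusted p = 0.014) and kept its call in 12 of 12 fits that each left out 1 liver. Ifi47, a GTPase of the same family as Irgm1, had 18.5 FPKM in control and 9.27 FPKM in IH, a difference of -0.81 ± 0.18 (limma adjusted p = 0.026), and kept its call in 5 of 12 fits. The other 5 kept theirs in 1 to 4 of 12. The count of the 7 fell to 1 without IH ZT4 replicate 2, IH ZT4 replicate 3 or IH ZT8 replicate 1. It was also 1 without control ZT4 replicate 1 or control ZT4 replicate 3. It was 2 without IH ZT4 replicate 1 or control ZT8 replicate 1, and 4 without IH ZT8 replicate 3 or control ZT8 replicate 2. The shares of all genes called in these fits were not counted.

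The most abundant of these further genes, Ifitm3 (604.7 and 624.4 FPKM in control and IH), Ifitm2 and Lgals9, were not called, and their differences were 0.05 ± 0.07, -0.09 ± 0.06 and -0.01 ± 0.06. None of 12 antigen presentation genes was called, and their median difference was 0.02. B2m, the invariant chain of class I molecules, had 1781 FPKM in control and 1740 FPKM in IH. Outside ZT4 and ZT8 none of the pathway, further interferon-stimulated or antigen presentation genes was called in either direction.

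Markers of other liver cells moved with the ZT4 and ZT8 comparison in part. All 9 Kupffer cell markers were lower in IH, with a median difference of -0.38 and 0 calls, and their summed level ran from 60.8 to 139.5 FPKM in control and from 51.1 to 95.9 FPKM in IH. The 7 acute-phase genes were all lower in IH there, with a median difference of -1.47 and 0 calls, and so were the 3 neutrophil markers tested, at a median of -0.46 and 0 calls. The neutrophil markers summed to 0.741 to 6.53 FPKM in control and to 0.404 to 1.69 FPKM in IH, and Mpo was at 0 in all 6 IH livers. Of the 8 leukocyte markers tested, 5 were higher in IH, and Cd3g was called (0.22 ± 0.04, limma adjusted p = 0.018). The 6 hepatocyte markers were all higher, Apoa1 and Cyp2e1 with a call. All 6 endothelial markers (median 0.14) and all 3 dendritic cell markers tested (median 0.05) were higher too, with 0 calls. The part of these cells in the levels of the members was not tested.

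Within the 12 groups of 3 mice, the deviation of each member from its group mean was correlated with that of the other members. Pearson r over the 36 livers ran from 0.12 (Oas3) to 0.92, with a median of 0.79. Oas2 (0.18) and Ifi35 (0.31) were also low. With control ZT0 replicate 1 left out of the correlation but kept in its group mean, the median was 0.68. Its group mates, replicates 2 and 3, then kept mean deviations of -0.44 and -0.24 from a mean that held this mouse. The value of 0.68 is therefore not free of that mouse. The deviation of each gene outside the list was likewise correlated with the mean deviation of the members over the 36 livers, for the 9782 genes that averaged 1 FPKM or more. Among the genes with the highest values were Gbp10 (Pearson r = 0.92), Gbp7 (0.90), Tgtp1 (0.89), Tgtp2 (0.89), Ifit3b (0.89), Samhd1 (0.86), Trim12c (0.83), the peptide transporter Tap1 (0.80) and Trim34a (0.79). These livers share the mouse of ZT0 that stood apart. With it left out in the same way, Ifit3b and Gbp10 were at 0.84 and Tap1 at 0.60. These values still carry that mouse through its group mean. The values are a description, since the deviations of the 3 mice of a group are taken from their own mean and are not independent.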

How the data were processed

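The authors made the deposited FPKM values per replicate by aligning stranded paired-end reads of 100 bases to mm10 with TopHat2 2.1.1 and Bowtie2 and estimating expression with Cufflinks 2.2.1. Which annotation was used, and whether samples were scaled to each other, is not given in the sources used here. Both tables carry the same column names, so the condition of each was taken from the table's name and the study's plotted profiles. Of 24346 symbols, the 280 on more than 1 row were left out. Genes averaging 0.1 FPKM or more were tested with limma 3.58.1 (intensity trend, R 4.3.3) on log2(FPKM + 1), at a Benjamini-Hochberg adjusted p of 0.05, and fold changes of low genes are understated on this scale. The members and lists were chosen with earlier results of these data known. Values are given for the highest member and the member of smallest p in each role, for Isg15, Irgm1 and Lgals3bp, for pathway genes called or most abundant, and for the 10 nearest genes, except that 1 gene is not reported here. In data simulated for the comparison outside ZT4 and ZT8, 99% of 200 genes changed by 1 log2 unit were called, and 0.0872% of 12615 unchanged genes. The simulated noise was independent between genes. The members' differences there ran from -0.41 to 0.04, so the simulation does not give the power for differences of that size. Coordinates are from GENCODE M21. Figures used Python 3.11.15 and matplotlib 3.10.9.

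Alternatives were a pseudocount of 0.1, no filter or a floor of 1 FPKM on the mean, 3 scalings, the replicate number as a block, no time factor, a nominal P of 0.01, and leaving out each library. Leaving out the libraries that stood apart, or the 3 with the most Saa1, and testing each condition alone were added after the data were seen.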

Additional observations from a re-analysis of the deposited data

How the results depend on the processing

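Outside ZT4 and ZT8, 0 members were called lower or higher in IH under every alternative, except for 1 lower (Irf7) at a nominal P of 0.01, where 0.356% of all genes were lower. At the 4 single time points the count of members called was 0, except for 1 (Oas2 at ZT12) at the nominal P and a range of 0 to 4 when libraries were left out in turn. The 4 came without control ZT12 replicate 3 (Ifi35, Irf7 and Oas2 lower, Parp9 higher) and 1 without control ZT12 replicate 1 (Oas2). Both fits kept control ZT12 replicate 2, which stood apart, and the shares of all genes called in them were not counted. The time-of-day count was 25 to 31 when libraries were left out, with 24% to 40.4% of all genes called. It was 18 in the IH livers alone (12% of all genes) and 5 in the control livers alone (6.8%). Mx2 lost its time-of-day call without control ZT0 replicate 1 and under 2 of the 3 scalings. Zbp1 gained one with FPKM rescaled to a common sum (0.049), without the 3 libraries with the most Saa1 (0.020) and without 3 single libraries, and Gbp3 without control ZT0 replicate 1 or 2 or both livers that stood apart. The sign outside ZT4 and ZT8 turned for Oasl1 under median-of-ratios scaling (-0.0016) and quantile normalization (-0.0028) and without IH ZT16 replicate 1 (-0.013, in a range of -0.013 to 0.1001 with libraries left out in turn). It turned for Irgm1 without control ZT0 replicate 1 (0.075, in a range of -0.128 to 0.075) and without both livers that stood apart (3.219e-04), and for Isg15 without both (0.0099). The 7 further interferon-stimulated genes called at ZT4 and ZT8 became 1 with no filter, 11 with median-of-ratios scaling, and 1 to 5 with libraries left out. The cause was not tested, and the shares of all genes called at ZT4 and ZT8 in these fits were not counted. The fitted peak ran from 1.91 to 2.94 h in control and from 1.05 to 1.77 h in IH.

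Same-numbered IH and control mice are different animals. The deviations of their 18 pairs correlated by 0.05 on average (from -0.18 to 0.29), with 6 pairs above 0.1. Pairs of unlike number were not compared, so whether livers of the same number share anything was not tested. With the replicate number as a block, 27 members were called in the time-of-day test and 0 by condition outside ZT4 and ZT8. Of the further genes, 6 were called lower at ZT4 and ZT8. The shares of all genes called with the block were not counted, so nothing is read from these counts. Without counts, the precision of low members such as Oas3 and Mx1 is not known.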

Other observations

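Of 12 antigen presentation genes, which are known targets of interferon gamma, 3 (Tap1, Psmb9 and Nlrc5) were more than 2 times as high in control ZT0 replicate 1 as in its group mates, and the median ratio was 1.45. B2m (1.05), H2-D1 (1.04) and H2-K1 (1.04) were near 1. The immunoproteasome subunit Psmb9 was at 34.4 FPKM there and at 10.0 and 14.3 FPKM in its group mates, and Tap1 was at 24.1 FPKM, against 6.47 and 8.01. Of the 12 genes of that list, 5 had their highest value of all 36 livers in this mouse, and of the 57 further interferon-stimulated genes 38 did. Of these 57, Tgtp1 had the widest ratio to the group mates, 23.0, and Gbp4 was 11.2 times as high. The chemokine Cxcl10 was at 5.89 FPKM, against 0.957 and 1.73 in the other control mice of ZT0. After this library, control ZT12 replicate 2 held the highest value for 3 members (Oas2, Oas3 and Ifi35), control ZT4 replicate 3 for 2 (Ifih1 and Ddx60) and control ZT4 replicate 2 for 1 (Mx1). In that order, they held the highest value for 14.5%, 1.12% and 1.83% of all genes tested.

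Outside ZT4 and ZT8, the 9 Kupffer cell markers were also lower in IH by sign, with a median difference of -0.29 and 0 calls, and the 12 antigen presentation genes were all lower by sign, with a median of -0.14 and 0 calls (limma). Both medians include control ZT0 replicate 1 and control ZT12 replicate 2.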
